A study of Mus musculus with 9 samples.

Results

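The Gimap genes encode GTPases of immunity-associated proteins, and the mouse has them as 1 chromosomal cluster. The members examined were the 8 rows of the count table with the symbols Gimap1, Gimap3, Gimap4, Gimap5, Gimap6, Gimap7, Gimap8 and Gimap9, out of 34092 gene rows. The libraries came from primary mouse T cells taken ex vivo and sorted as regulatory T cells (Treg cells), in the resting state. WT cells carried the Foxp3gfp allele, a green fluorescent reporter at Foxp3, and CNS2KO cells the Foxp3deltaCNS2-gfp allele, which has the reporter and lacks CNS2, a conserved noncoding element within Foxp3. Both genotypes therefore carried a reporter at Foxp3, and the sources used here give neither the age of the mice nor whether animals were pooled or which sample came from which animal, so the spread between libraries may be technical. The labels list 6 WT and 3 CNS2KO samples. Both columns numbered 407 were left out because that number is given to a sample of each genotype and their values are identical, which left 5 WT libraries (398, 402, 405, 1032, 1037) and 2 CNS2KO libraries (399, 408). The genes were chosen by symbol, as a family picked with the CPM and the genotype fold changes of these same libraries already known, so the members' genotype values are a description and no p is given for them.

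Gimap proteins bind GTP through a domain of the AIG1 type and are found mainly in lymphocytes, where several are anchored in membranes of the endoplasmic reticulum, lysosomes or mitochondria. The family is known for keeping resting lymphocytes alive. Rodents without a working Gimap5 lose peripheral T cells, Gimap1 is needed by mature lymphocytes, Gimap6 binds the autophagy protein Gabarapl2, Gimap4 affects how quickly T cells die, Gimap3 affects the inheritance of mitochondrial DNA in blood cells, and Gimap7 can pair with other family members and stimulate GTP hydrolysis. Gimap8 is the long member, with more than 1 GTPase domain.

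In the RefSeq gene table of GRCm38.p6, the cluster lies on chromosome 6 in the order Gimap8, Gimap9, Gimap4, Gimap6, Gimap7, Gimap1, Gimap5, Gimap3. Gimap6 and Gimap3 lie on the minus strand and the other 6 on the plus strand. The submitters' processing notes name the build mm9, and the coordinates printed here are those of RefSeq windows on GRCm38.p6. In GENCODE M21, also on GRCm38, the transcript with the longest coding sequence had 291 codons in Gimap9, 293 in Gimap7 and 688 in Gimap8. A single exon held the whole coding sequence of Gimap7 and of Gimap9, and 31.9% of that of Gimap8 at most. Gimap3 and Gimap5 were the closest pair, identical in 86.7% of the columns of their coding alignment (90.3% of 898 bases outside gaps), and Gimap7 and Gimap9 the next, in 64.2% of the columns. Of the 50-base words in their transcripts, 9.06% of those of Gimap3 and 9.98% of those of Gimap5 occur in the other gene, so the split of reads between these genes is uncertain. RefSeq also lists Gimap5 among the older names of Gimap3. Gimap1 shared 13.99% of its 50-base words with genes outside the family, among them its antisense partner Gimap1os and Gm28053, which also shares such words with Gimap7, Gimap5 and Gimap3. The labels do not say how reads on overlapping or opposite genes were counted.

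The stretches of 250 bases upstream of the start are shown for Gimap7, the member whose genotypes did not overlap, and for Gimap6, Gimap4 and Gimap9, with which it formed a block of positive correlations across libraries. They come from RefSeq (GRCm38.p6, 5′ to 3′ along the gene), with capitals marking the ETS-type word GGAAG, the Runx word TGTGGT and the STAT word TTCNNNGAA on either strand.
Gimap7, chr6:48718371-48718620, + strand: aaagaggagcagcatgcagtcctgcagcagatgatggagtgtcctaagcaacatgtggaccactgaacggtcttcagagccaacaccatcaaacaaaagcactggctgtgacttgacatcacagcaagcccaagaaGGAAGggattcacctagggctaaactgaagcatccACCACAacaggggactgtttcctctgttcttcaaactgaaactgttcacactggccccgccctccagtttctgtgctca
Gimap6, chr6:48708245-48708494, - strand: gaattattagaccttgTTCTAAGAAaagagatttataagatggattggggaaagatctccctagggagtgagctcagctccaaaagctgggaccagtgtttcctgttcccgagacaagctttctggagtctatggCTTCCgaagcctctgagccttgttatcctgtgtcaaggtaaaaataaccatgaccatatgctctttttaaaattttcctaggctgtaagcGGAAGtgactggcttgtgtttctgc
Gimap4, chr6:48684328-48684577, + strand: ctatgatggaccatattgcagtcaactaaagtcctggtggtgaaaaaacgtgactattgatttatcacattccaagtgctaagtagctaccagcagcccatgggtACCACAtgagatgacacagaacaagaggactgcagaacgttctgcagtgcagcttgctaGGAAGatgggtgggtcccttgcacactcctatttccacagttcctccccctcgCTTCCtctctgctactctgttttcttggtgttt
Gimap9, chr6:48675885-48676134, + strand: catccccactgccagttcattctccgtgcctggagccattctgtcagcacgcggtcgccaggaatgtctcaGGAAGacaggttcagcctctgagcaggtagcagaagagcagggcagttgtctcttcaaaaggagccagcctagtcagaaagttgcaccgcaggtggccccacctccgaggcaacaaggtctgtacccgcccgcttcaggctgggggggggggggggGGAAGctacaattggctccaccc
All 8 members had an entry, with 9 windows in all, and GGAAG was in 8 of the 9, at least 1 for each gene, as in 64.1% of 32851 windows of all genes. The shorter ETS core GGAA, which GGAAG contains, was in 8 of the 9 and in 93.4% of all windows. TGTGGT was in 3 of the 9 windows (Gimap4, Gimap7 and Gimap1) and in 14.05% of all, and TTCNNNGAA in 2 of the 9 (Gimap8 and Gimap6) and in 7.02% of all. The Ikaros and Rbpj word TGGGAA, in 21.6% of all windows, was in 0 of the 9, as were the Klf word CACACCC (6.93% of all) and the GATA word AGATAA (9.99%). The forkhead word TGTTTAC was in 1 of the 9, that of Gimap3 (3.17% of all), and TATAAA in 1, that of Gimap6 (12.4%). Each word was searched on both strands and may overlap another, and a match is a match of letters only. The members' windows held 1 to 8 CpG dinucleotides, against a median of 6, and only the window of Gimap9, with 8, exceeded that median.

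Reads assigned to genes numbered 16557424 to 21836578 per library. Foxp3 itself, of which the deleted element is a noncoding part, stood at 410 to 607 CPM (counts relative to the TMM-scaled library size) in the 5 WT libraries and at 464 and 441 in CNS2KO 399 and 408, which does not check the genotype labels. The regulatory and CD4 T cell markers were read in every library, with a summed level of 6239 to 7135 CPM in WT and of 6652 and 6684 CPM in CNS2KO.

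Gimap genes were abundant in resting Treg cells of both genotypes. The 8 members together took 90233 to 141323 reads per library, 0.517 to 0.647% of the reads on genes, and all 8 passed the filter on low counts. Their summed level averaged 5721 ± 692 (SD, n = 5, WT) against 6418 ± 373 CPM (SD, n = 2, CNS2KO), a ratio of 1.12. CNS2KO 399 (6682 CPM) lay above the highest WT library (6448 CPM), and CNS2KO 408 (6154 CPM) lay inside the WT range.

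Per kilobase of exon in GENCODE M21, Gimap4 had the highest level in WT, at 1239.5 ± 224 CPM per kb (SD, n = 5). Gimap6 followed at 456 ± 50.7 CPM per kb and Gimap3 at 284 ± 11.9. The WT ranges of these members did not overlap, and they kept this order in 7 of 7 libraries. Gimap7 (255 ± 24.6 CPM per kb) and Gimap9 (245 ± 66.8) came next. With these exon lengths, neither Gimap3 and Gimap7 nor Gimap7 and Gimap9 could be ordered beyond their spread. Gimap3 lay above Gimap7 in 4 of 5 WT libraries and Gimap7 above Gimap9 in 2 of 5. Gimap8 (83.3 ± 8.17 CPM per kb), Gimap5 (83.3 ± 13.0) and Gimap1 (82.5 ± 17.6) formed the low end, and Gimap8 was below Gimap9 in 7 of 7 libraries. The last 3 overlapped one another. With the length of 1 transcript in place of all exons, the order of the means was the same. The level of Gimap6 was then 914 ± 101 CPM per kb, so its distance from Gimap4 depends on the transcript model. The same holds for the distance of Gimap3, then at 341 ± 14.2 CPM per kb, from Gimap7, which stayed at 255 ± 24.6.

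**Figure D1:**
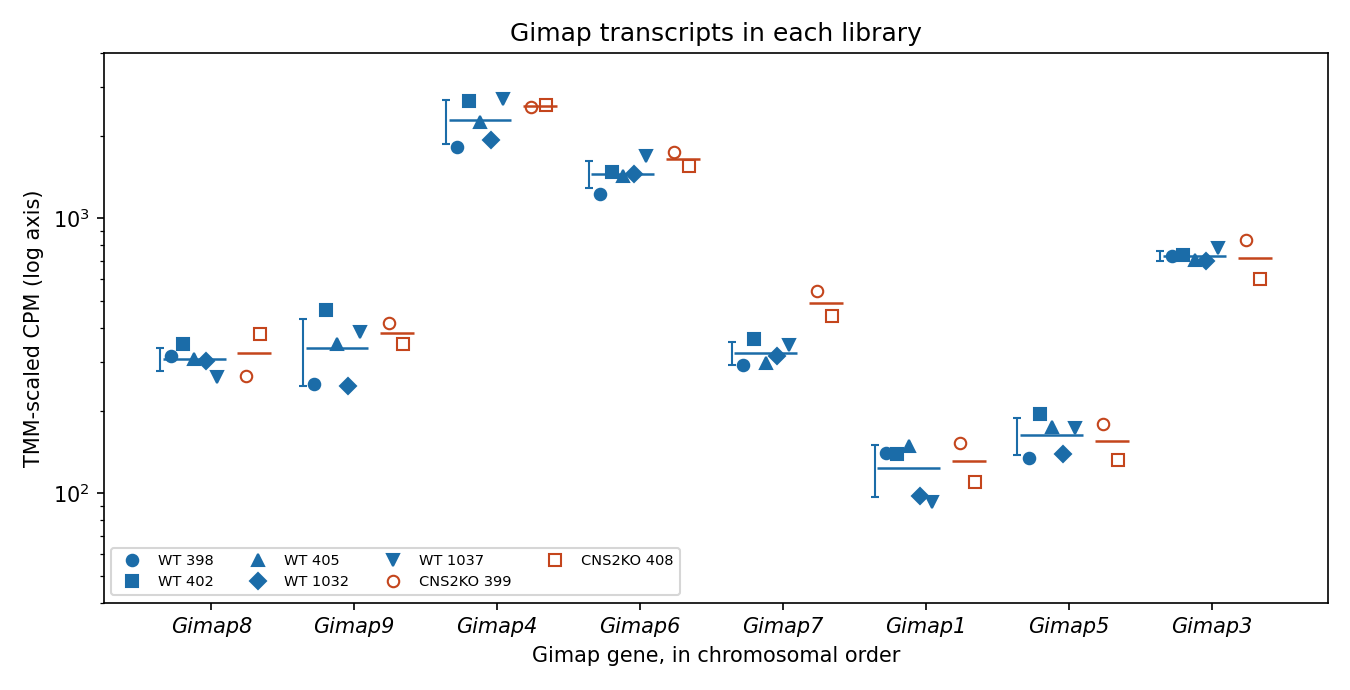
TMM-scaled CPM (log axis) of each Gimap gene, in chromosomal order, in 5 WT (blue, filled) and 2 CNS2KO (red, open) libraries, with horizontal lines at the group means and vertical bars for the WT SD. Gimap7 is the member whose CNS2KO points (545 and 441 CPM) both lie above every WT point.

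The genotypes were compared across all genes to ask which transcripts differ in resting Treg cells without CNS2. The family as a whole differed little: the median log2 fold change (CNS2KO minus WT) of the 8 members was 0.13, beside -0.03 for the 14424 genes tested, and 6 of the 8 had a positive sign. The number was 4 of 8 with WT numbers of 3 digits only and with a term for libraries 1032 and 1037, 5 without CNS2KO 399 and 7 without CNS2KO 408. Gimap7 stood apart in size. edgeR's quasi-likelihood test called 0 of the 14424 genes (0%) at an FDR of 0.05, and thus 0 of 8 members, with 361 genes at an unadjusted p under 0.05. Other tools also called 0 genes (0%): at an unadjusted p under 0.05, DESeq2 had 496 genes, the exact test of edgeR 403, limma-voom 614, and limma run on the authors' log2 values had 402. Gimap7 was the 1 member of 8 in which each CNS2KO library exceeded the highest WT library, a pattern seen in 3.76% of all genes tested. The opposite pattern, each CNS2KO library under the lowest WT one, was seen in 0 of 8 members and in 3% of all genes.

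Gimap7, which in biochemical work stimulates GTP hydrolysis of a family partner, stood at 292 CPM in WT 398, 365 in WT 402, 298 in WT 405, 315 in WT 1032 and 345 in WT 1037, and at 545 in CNS2KO 399 and 441 in CNS2KO 408. Both CNS2KO libraries were higher than each WT library, with CNS2KO 399 the higher of the pair. Group means were 323 ± 31.2 (SD, n = 5, WT) against 493 ± 73.7 CPM (SD, n = 2, CNS2KO), a fold of 1.53 (log2 fold change 0.61, SE 0.16). The log2 fold change was 0.45 without CNS2KO 399 and 0.75 without CNS2KO 408, and 0.63 with the WT numbers of 3 digits only.

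Gimap6, the partner of Gabarapl2, stood at 1227 CPM in WT 398, 1481 in WT 402, 1433 in WT 405, 1457 in WT 1032 and 1682 in WT 1037, and at 1745 in CNS2KO 399 and 1551 in CNS2KO 408. Of these, CNS2KO 399 lay above the WT range and CNS2KO 408 below WT 1037 only. Group means were 1456 ± 162 (SD, n = 5, WT) against 1648 ± 137 CPM (SD, n = 2, CNS2KO), and the log2 fold change was 0.18 (SE 0.15).

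Gimap4, the most abundant member, stood at 1826 CPM in WT 398, 2667 in WT 402, 2237 in WT 405, 1930.3 in WT 1032 and 2725 in WT 1037, and at 2540.4 in CNS2KO 399 and 2588 in CNS2KO 408. The WT libraries spread widely, with 402 and 1037 at the top and 398 and 1032 at the bottom, and both CNS2KO libraries lay inside that range. Gimap9 had the same WT pattern, at 251 CPM in WT 398, 463 in WT 402, 348 in WT 405, 246 in WT 1032 and 387 in WT 1037, and stood at 416 in CNS2KO 399 and 350.0 in CNS2KO 408. The log2 fold changes were 0.17 (SE 0.17) for Gimap4 and 0.18 (SE 0.24) for Gimap9. Gimap9 had the widest WT spread of the family, with an SD of 27.3% of its mean.

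Gimap3 had the tightest WT spread, with an SD of 4.18% of its mean. It stood at 733 CPM in WT 398, 738 in WT 402, 706 in WT 405, 702 in WT 1032 and 778 in WT 1037, and at 837 in CNS2KO 399 and 602 in CNS2KO 408. The CNS2KO libraries thus lay on opposite sides of the WT range, and the fold change from their mean was -0.02 on the log2 scale (SE 0.16). Gimap8 split them the other way. It stood at 316 CPM in WT 398, 349.5 in WT 402, 308 in WT 405, 303 in WT 1032 and 265 in WT 1037, and at 266 in CNS2KO 399 and 380.2 in CNS2KO 408. Here CNS2KO 399 was at the lower edge of the WT range and CNS2KO 408 above it, with a log2 fold change of 0.07 (SE 0.18). Without CNS2KO 399 and without CNS2KO 408, the log2 fold changes were -0.28 and 0.19 for Gimap3, and 0.31 and -0.22 for Gimap8.

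The survival factor Gimap5 ranged from 134 to 194 CPM over the WT libraries, with 179 in CNS2KO 399 and 132 in CNS2KO 408. The latter lay just below the WT range and the former inside it (log2 fold change -0.06, SE 0.21). Gimap1, the member needed by mature lymphocytes, stood at 139.9 CPM in WT 398, 138 in WT 402 and 149 in WT 405, at 97.6 in WT 1032 and 92.6 in WT 1037, and at 152 in CNS2KO 399 and 109.7 in CNS2KO 408. The WT libraries with numbers of 4 digits were the lowest of the 7 for Gimap1; the labels do not say what the numbers mean. Its log2 fold change was 0.09 (SE 0.24) with all libraries and -0.12 with WT numbers of 3 digits only. The signs of Gimap1, Gimap3, Gimap5 and Gimap8 depended on which CNS2KO library was left out, whereas Gimap4, Gimap6, Gimap7 and Gimap9 had positive values in both.

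**Figure D2:**
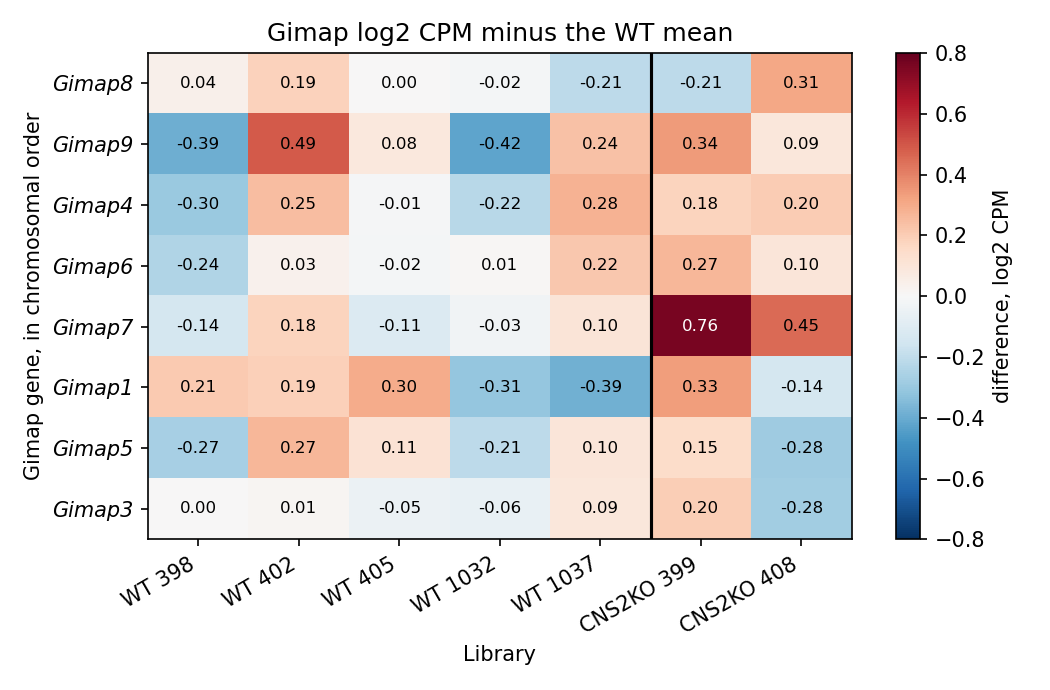
Log2 CPM of each Gimap gene (rows, in chromosomal order) in each library (columns) minus the mean of the 5 WT libraries, with WT left and CNS2KO right of the line. Gimap7 reads 0.76 in CNS2KO 399 and 0.45 in CNS2KO 408, against at most 0.18 in WT, while Gimap3, Gimap5, Gimap8 and Gimap1 have opposite signs in the CNS2KO libraries.

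The make-up of the family's reads does not depend on how libraries are scaled. Gimap7 took 5.27 to 6.07% of the reads on the 8 genes in WT (mean 5.67%, SD 0.35, n = 5), and 8.16% in CNS2KO 399 and 7.17% in CNS2KO 408. Gimap4 took 37.1 to 42.3% in WT and 38.0 and 42.0% in CNS2KO. Gimap6 took 23.2 to 28.1% in WT and 26.1 and 25.2% in CNS2KO, so for both of these the CNS2KO shares lay inside the WT range. For Gimap3 the share in CNS2KO 399, 12.5%, lay inside the WT range of 11.5 to 14.9%, and that in CNS2KO 408, 9.79%, below it. The share of Gimap5 was 2.673% in CNS2KO 399 and 2.15% in CNS2KO 408, against a lowest WT value of 2.675%, a gap that for CNS2KO 399 is in the third decimal. Relative to Gimap3, Gimap4, Gimap5 and Gimap6, each taken alone, Gimap7 was higher in both CNS2KO libraries than in every WT library. Relative to Gimap1, Gimap8 and Gimap9, each taken alone, it was not.

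**Figure D3:**
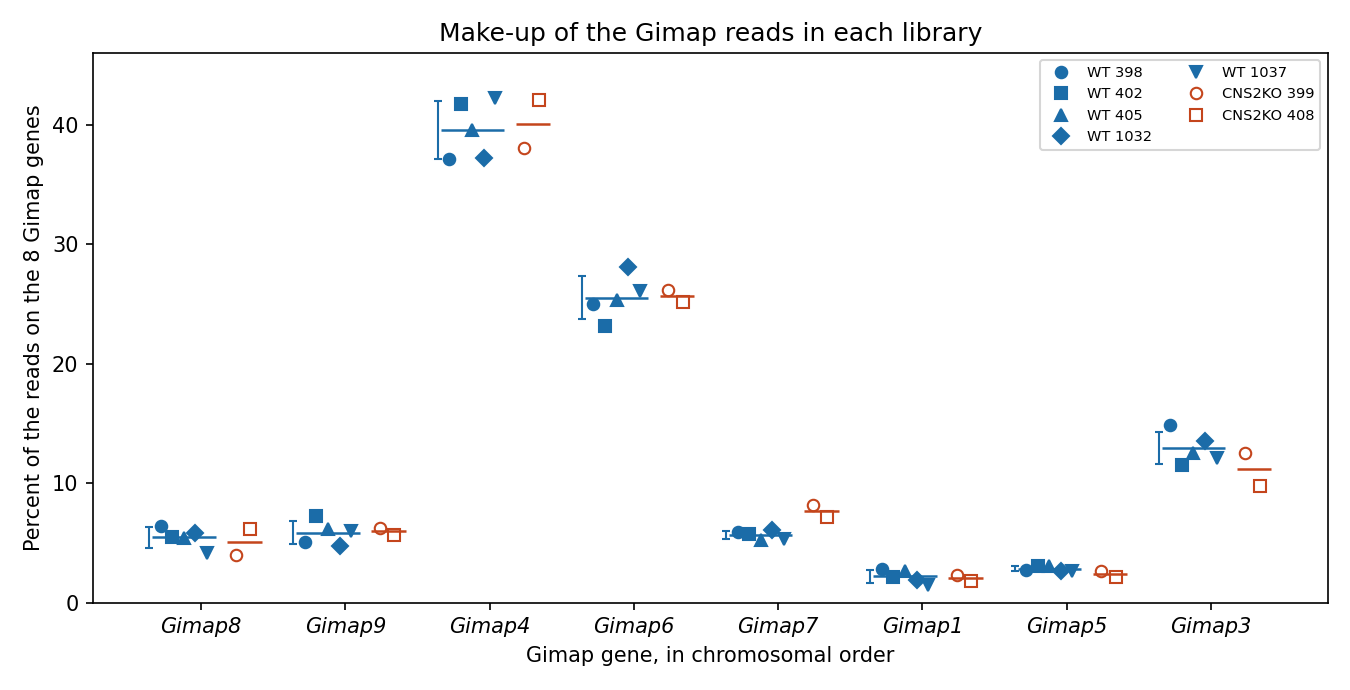
Percent of the reads on the 8 Gimap genes that fell on each gene, in chromosomal order, in 5 WT (blue, filled) and 2 CNS2KO (red, open) libraries, with lines at the group means and bars for the WT SD. Gimap4 and Gimap6 hold the most reads in every library, and Gimap7 moves from at most 6.07% in WT to 7.17 and 8.16% in CNS2KO.

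**Figure D4:**
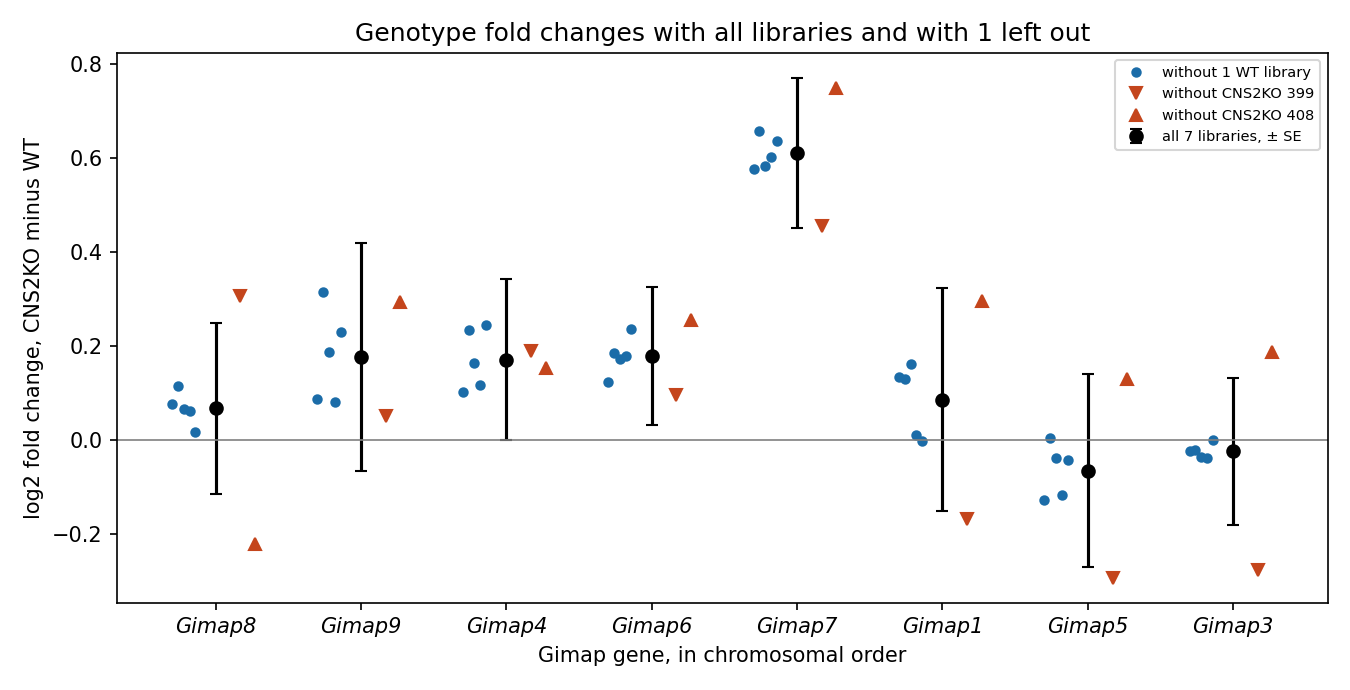
Log2 fold change of each Gimap gene, CNS2KO minus WT, with all 7 libraries (black, bars are ± SE), with 1 WT library left out (blue) and with 1 CNS2KO library left out (red triangles). Gimap7 stays between 0.45 and 0.75, and leaving out a CNS2KO library moves the values more than leaving out a WT library for Gimap7, Gimap8, Gimap3, Gimap5, Gimap1 and Gimap6.

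Members varied together in part. Over the 28 pairs of members, the median Pearson's r of log2 CPM across the 7 libraries was 0.28, with 20 positive, beside 0.00 and 50.3% positive over all pairs of genes tested. These values describe 7 libraries that share genotypes and scaling. The closest pair was Gimap4 and Gimap9, which are neighbours on the chromosome (r = 0.92, Spearman's rho = 0.79), and 0.355% of all gene pairs had an r as high. Since this pair was picked as the highest of 28, that share is no measure of how unusual it is. Without WT 398 and WT 1032, the libraries farthest from the median of Gimap4, the r of this pair was 0.54. Gimap5 and Gimap9 followed (r = 0.82, rho = 0.68), with 0.98 without CNS2KO 408 and WT 398, and then Gimap4 and Gimap6 (r = 0.79, rho = 0.71), with 0.52 without WT 398 and WT 1032. Gimap6 and Gimap7, also neighbours, had r = 0.75 and rho = 0.89, and 0.41 without WT 398 and CNS2KO 399. Gimap3 and Gimap8, at the ends of the cluster, varied in opposite directions (r = -0.84, rho = -0.61), and -0.46 in the 5 WT libraries alone. Gimap3 and Gimap5, the closest pair in coding sequence, had r = 0.62 and rho = 0.68, and an r of 0.33 in WT alone. Gimap1 and Gimap8 had the lowest median r with the other 7 members, 0.16 and -0.07, and Gimap4 the highest, 0.61.

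**Figure D5:**
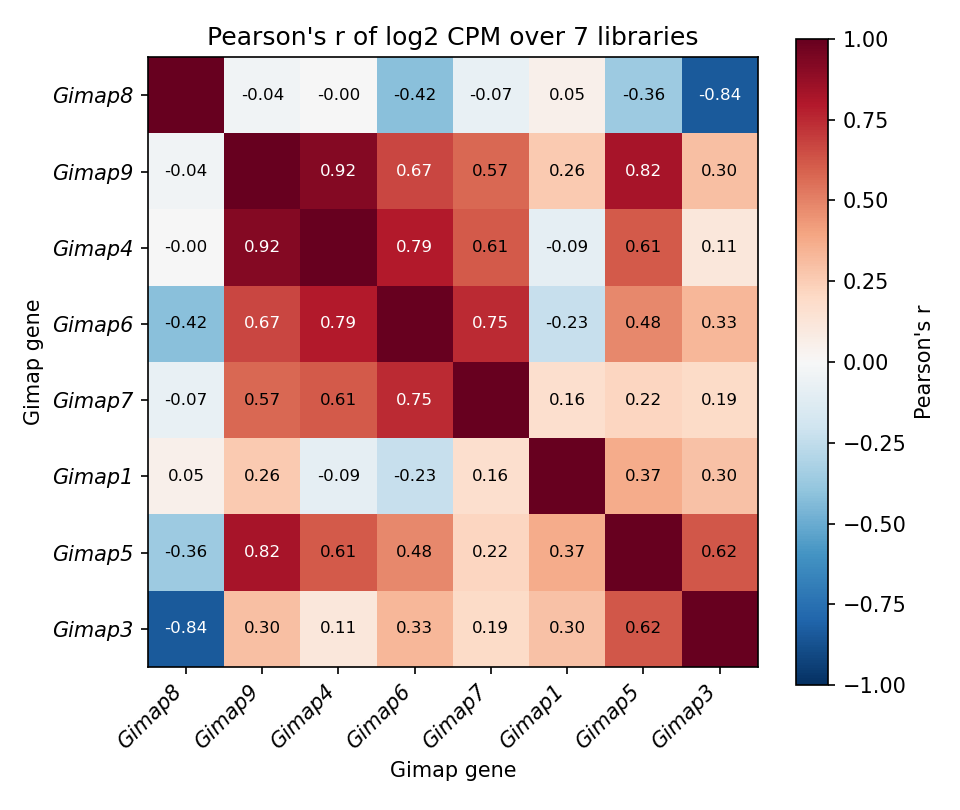
Pearson's r of log2 CPM between each pair of Gimap genes, in chromosomal order, over 7 libraries. Gimap9, Gimap4, Gimap6 and Gimap7 form a block of positive values from 0.57 to 0.92, and Gimap8 and Gimap3 stand at -0.84.

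The mean of the 8 members, each centred on its own mean, was highest in CNS2KO 399 (0.21 on the log2 scale) and WT 402 (0.16) and lowest in WT 398 (-0.18) and WT 1032 (-0.20). Among 4922 other genes with a mean log2 CPM of at least 5, the proteasome ATPase gene Psmc1 followed this mean most closely over the 7 libraries (r = 0.996, rho = 0.89). The exosome gene Exosc8 (r = 0.98), the TFIIH subunit gene Gtf2h3 (0.98), Nap1l4 (0.97), the proteasome subunit gene Psmb7 (0.97) and Glipr1 (0.97) came next. Without CNS2KO 399 and WT 1032, the r of these 6 genes was 0.95 to 0.997. The opposite pattern was closest in Ncoa1 (r = -0.98), Prdm2 (-0.97) and Kdm5c (-0.97). The share of reads on no feature was largest in WT 398 (54.3%) and WT 1032 (53.2%), where the mean was lowest. It was smallest in CNS2KO 399 (47.7%) and WT 402 (48.1%), where the mean was highest. The part of this share in the mean, or in the genes that follow it, was not tested. With so few libraries and so many genes ranked, these values are a description.

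The genes around the cluster were low. Of the 3 nearest on each side with a row in the table, AI854703, Zfp775 and Repin1 lay before Gimap8 and Tmem176b, Tmem176a and Gm7932 after Gimap3. Gm7932 had 0 reads in all libraries, and the other 5 had WT means of 0.502 to 6.35 CPM. Tmem176b stood at 1.88 to 8.31 CPM in WT, 24.0 in CNS2KO 399 and 4.74 in CNS2KO 408. Both CNS2KO libraries lay above the WT range in 0 of the 5 tested (3.76% of all genes) and below it in 0 (3% of all genes).

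Bcl2 family genes, the survival and death regulators with which Gimap proteins have been linked, had 6 positive and 10 negative log2 fold changes among 16 tested (median -0.07). Of them 0 passed the test, and both CNS2KO libraries exceeded the WT range in 2, Mcl1 and Bcl2a1b (3.76% of all genes), and were under it in 0 (3% of all genes). Bcl2 had a WT mean of 424 ± 64.9 CPM (SD, n = 5) and stood at 346 and 373 in CNS2KO 399 and 408 (log2 fold change -0.24), and the anti-apoptotic Mcl1 at 289 ± 19.3 CPM in WT and 324 and 323 in CNS2KO (0.16). Bcl2a1b stood at 26.1 ± 4.68 CPM in WT and 38.7 and 37.7 in CNS2KO (0.55), and is a near-identical copy of other Bcl2a1 genes. The lowest fold change was that of Hrk, at 0 to 2.38 CPM in all libraries. The median of this list was 0.10 without CNS2KO 399, -0.23 without CNS2KO 408 (-0.12 for all genes) and 0.08 with WT numbers of 3 digits only.

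Of the autophagy genes, a list that includes Gabarapl2, to which Gimap6 binds, 16 were tested. They had 13 positive and 3 negative values (median 0.15), and 0 passed in either direction. In 0 of them did both CNS2KO libraries lie above the WT range (3.76% of all genes) or below it (3% of all genes). Map1lc3b stood at 354 ± 50.8 CPM in WT and 396 and 310.2 in CNS2KO, and Gabarap at 248 ± 28.9 CPM and 265 and 263, with log2 fold changes of -0.00 and 0.09. Atg7 (-0.25) and Atg16l1 (0.37) were the extremes. The list had 9 positive values without CNS2KO 399 (median 0.09) and 12 without CNS2KO 408 (0.21).

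Genes of quiescent and naive T cells had 5 positive and 13 negative values among 18 tested (median -0.14), and 0 passed. The median was -0.23 without CNS2KO 399, beside -0.04 for all genes, and -0.16 without CNS2KO 408, beside -0.12 for all genes. Both CNS2KO libraries were under the whole WT range in 4 of 18, beside 3% of all genes: the transcription factors Tcf7 (log2 fold change -0.40), Foxo1 (-0.25) and Foxp1 (-0.26) and the egress receptor S1pr1 (-0.34). They were over it in 1, beside 3.76% of all genes, the quiescence factor Slfn2, with a WT mean of 871 ± 83.6 CPM (SD, n = 5) and 1240.3 and 1119 in CNS2KO (0.44). Ets1, a transcription factor of the ETS family, had a log2 fold change of 0.02. Among 14 proposed regulators of Gimap genes or of T cell identity, 4 were positive and 10 negative (median -0.12), and 0 passed. The CNS2KO pair was under the whole WT range in 2 of 14, beside 3% of all genes. These were the Ikaros family factor Ikzf3 (-0.71) and Tcf7, which also belongs to the list of quiescent and naive T cells. The pair was over the range in 0 of 14, beside 3.76% of all genes. Without CNS2KO 399, the median of these regulators was -0.12, beside -0.04 for all genes. Without CNS2KO 408 it was -0.31, beside -0.12 for all genes. Foxp3 had a log2 fold change of -0.11 and Ikzf1 of -0.34, and Tbx21 (-1.52, at most 1.48 CPM in any library) and Runx3 (0.31) also belong to that list.

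The other immunity GTPases, the interferon-induced Irg, Gbp and Mx proteins, had 17 positive values of 17 (median 0.34), and 0 passed. Both CNS2KO libraries exceeded the WT range in 7 of 17, beside 3.76% of all genes: Gbp2, Gbp6, Gbp7, Gbp8, Igtp, Iigp1 and Tgtp1. Gbp7 had a WT mean of 882 ± 60.8 CPM (SD, n = 5), with 969 and 1066 in CNS2KO, and Igtp one of 694 ± 59.5 CPM, with 938 and 791. Gbp10 had the highest fold change (0.85), with 34.9 CPM in CNS2KO 399, below the WT minimum of 46.9, and 147 in CNS2KO 408, and Irgm2 the lowest (0.12). Without CNS2KO 408, 12 of these 17 were positive (median 0.22). Whether the Gimap family differs from this list was not tested.

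Summed erythroid markers lay above the WT range in both CNS2KO libraries, B cell markers in CNS2KO 399 and myeloid markers in CNS2KO 408. Erythroid markers summed to 5.79 to 19.9 CPM in WT, 125 in CNS2KO 399 and 24.1 in CNS2KO 408, and 3 of 3 tested had positive values, with Hbb-b1 at 2.48 and Hba-a1 at 1.96. B cell markers summed to 44.7 to 59.1 CPM in WT, 82.3 in CNS2KO 399 and 41.5 in CNS2KO 408, with 2 of 6 tested positive. Cd79b stood at 48.1 CPM in CNS2KO 399, against at most 30.2 in WT. Myeloid markers summed to 65.4 to 90.4 CPM in WT, 80.2 in CNS2KO 399 and 96.5 in CNS2KO 408, with 3 of 5 positive. Lyz2, at 0.182 to 9.27 CPM in WT, lay above the WT range in both. It was 1 of 5 to do so, beside 3.76% of all genes. Csf1r (log2 fold change -0.32) and Itgam (-0.39) were the negative ones. CD8 and NK cell markers summed to 46.5 to 61.1 CPM in WT and to 56.5 and 48.9 in CNS2KO, with 4 of 6 positive and Ncr1 at 0 in all libraries. Among endothelial markers, Kdr and Tie1 were at 0 in all libraries, Cdh5 had 17 reads in CNS2KO 408 and at most 1 elsewhere, and Pecam1, at 273 to 386 CPM, made up nearly all of the sum. Of these 5 lists, 0 genes passed the test, and with no filter on low counts 1 did, the erythroid Hbb-b1. CNS2KO 399, with the most erythroid and B cell RNA, was also the library with the highest Gimap7, Gimap6, Gimap3, Gimap1 and summed Gimap level. In CNS2KO 408, Gimap7 and the summed erythroid and summed myeloid markers lay above the WT range, and the summed B cell markers below it. The 3 erythroid genes tested each lay inside the WT range there. Hbb-b1 stood at 11.9 CPM (WT maximum 12.5), Hba-a1 at 7.51 (7.65) and Alas2 at 3.92 (4.26). The B cell marker Cd79b, at 23.2 CPM in CNS2KO 408, was also inside its WT range (minimum 21.9). The part of these cells in the Gimap7 values was not tested. In bulk libraries, more cells of a kind and more RNA per cell cannot be told apart.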

How the data were processed

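Total RNA of sorted Treg cells was amplified with SMARTer and prepared for Ion Proton, per the labels' protocols. STAR, BWA and edgeR are named with mm9 in the submitters' processing notes; versions, annotation and counter are not given in the sources. Whole-number read counts for each gene symbol were deposited, with a table of the authors' log2 values and one with 1 signed score per gene from the authors, whose groups are not named. The 5 summary rows of the counter were left out of library sizes and tests; reads on no feature made up 47.7 to 54.3% of each column and ambiguous reads 0.151 to 0.165%. In each table of samples 2 columns (numbered 407) were not used, so the planned 6 against 3 became 5 against 2.

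The deposited counts were fitted with edgeR 4.0.16 (R 4.3.3) using filterByExpr, TMM and the two-sided quasi-likelihood test over all 14424 genes kept, at a Benjamini-Hochberg FDR of 0.05; the SE is the fold change over the root of F. CPM are TMM-scaled, and log2 CPM for correlations used a prior count of 2. No pair of libraries used agreed within sampling noise (lowest chi-square per degree of freedom 23.8). Alternatives were relative log expression, upper-quartile and total-count scaling, no filter and 10 CPM in 3 libraries, the exact test of edgeR, DESeq2 1.42.0, limma-voom, limma 3.58.1 run on the authors' log2 table, an FDR of 0.1, a term for libraries 1032 and 1037, WT numbers of 3 digits only, prior counts of 0.5 and 5, and each library left out. Coding sequences were aligned with Biopython 1.88.

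All 8 members are named. From each list the 2 most abundant genes and those with the lowest and highest fold change are named, as are the 3 nearest flanking genes per side with a row in the table, and the 6 most and 3 least like genes, leaving out predicted and clone names; 1 gene that this rule names is not reported here. Genes named because their groups do not overlap, and some markers, were picked after their values were seen. Members, lists and tests were chosen with earlier results of these data known.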

Additional observations from a re-analysis of the deposited data

How the results depend on the processing

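The median log2 fold change of the members kept its sign in all 18 alternatives run, from 0.05 to 0.22 (0.07 to 0.22 with 1 library left out), and Gimap7 from 0.45 to 0.75. Scalings moved the median of all genes from -0.03 to -0.08 at most and turned no member's sign; without CNS2KO 408 it was -0.12. The count of genes called was 8 (7 higher, 1 lower, 0 of them Gimap, 1 of them the erythroid marker Hbb-b1) with no filter on low counts, and 0 in the other 18 alternatives, 7 of them with 1 library left out (0 to 0). Members with both CNS2KO libraries outside the WT range numbered 2, Gimap6 and Gimap7, with WT numbers of 3 digits only, and 1 to 4 with 1 library left out. The number was 2 without WT 1037 and 4 without CNS2KO 399 and also without CNS2KO 408, where 1 library alone had to lie outside. Fewer libraries make this pattern easier to meet. The share of all genes with it is not given for these settings, so these counts are not a result about the members. The median r between members was 0.15 with total-count scaling, 0.49 in the WT libraries only (an alternative chosen after seeing the data), and 0.15 to 0.36 with 1 library left out, the extremes being those without CNS2KO 399 and without CNS2KO 408. The cause was not tested. Where a CNS2KO library is left out, the other is assumed to vary like WT. No paired analysis was possible because the labels give no pairing of samples. The 1 number that the genotypes share, 407, belongs to the columns that were not used. Precision is limited by the 2 CNS2KO libraries, and how it depends on reads per gene was not tested.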

Other observations

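The authors' deposited table of 1 signed score per gene does not name its groups, direction or log base. In the authors' deposited table Gimap9 has the value 0.216, Gimap7 0.19, Gimap6 0.146, Gimap8 0.138, Gimap4 0.075 and Gimap1 0.057, and Gimap5 has -0.053 and Gimap3 -0.061. The 6 positive members are those with a positive log2 fold change in the comparison of CNS2KO with WT, but Gimap7, the largest there at 0.61, is below Gimap9 in the authors' deposited table. The median of the 8 values in the authors' deposited table is 0.11, beside 0.01 over all genes tested, of which 51.2% are positive. In 17 checks of 5 WT values each (CPM and share of the family's reads for each member, and the summed CPM), 0 had 1 library far from the other 4.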
